A study of Rattus norvegicus with 6 samples.

Results

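Among the DNase I sites of cultured rat microglia, 961 were already open in untreated cells and became more accessible with lipopolysaccharide (LPS). They were taken from a table of 129499 regions with counts, placed on build rn5 of the rat genome. A first step kept the 69548 regions (53.7%) that overlapped a hotspot, a stretch of dense DNase I cutting called by the authors, in all 6 libraries. These are called pre-open here. A second step kept those whose lower LPS value was at least 1.4 times the higher untreated value, which left 1.38% of the pre-open regions and 0.742% of all regions. Values are CPM, a region's count scaled to the library's total over all regions of the table. The untreated and LPS libraries chose the sites, so their difference is given as a description without a test. The libraries from glioma-conditioned medium (GCM) entered the choice only through the presence of a hotspot, and the size of their signal was not used.

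All cultures were microglia from cerebral cortices of 1-day-old Wistar pups, with 10 to 15 pups pooled per culture. They were kept in 10% serum for 2 weeks and then left to rest for 48 h. One group was left untreated, one received 100 ng/mL LPS from Salmonella enteritidis for 6 h, and one received for 6 h a medium that rat C6 glioma cells had conditioned for 24 h. Each of the 3 groups held 2 independent cultures. The cells are neonatal, serum-grown and pooled, and GCM differs from the untreated condition by everything in the conditioned medium and not by one agent. The files give positions and no gene names, and no gene annotation of build rn5 was used here, so sites are named by position and the cell type was not checked against marker genes.

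DNase I cuts DNA that nucleosomes do not protect, and enhancers and promoters in use appear as short stretches of frequent cutting. LPS is a component of the outer membrane of Gram-negative bacteria. It is sensed by Toll-like receptor 4, which leads to NF-kB, AP-1 and interferon regulatory factors entering the nucleus. In macrophages and microglia many of these factors bind enhancers that lineage factors such as PU.1 already keep open, while others open closed chromatin. Factors from glioma cells are known to turn microglia to a state that aids invasion. By their definition the sites described here were open beforehand and more accessible after LPS. Whether they are enhancers, and which factors bind them or keep them open, was not measured.

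Counts in regions ran from 7.14 M to 12.4 M per library, 10.0% to 13.7% of its reads. The median count at the 961 sites was 71 and 44 without stimulus, 110 and 135 under LPS and 63 and 94 under GCM. All 961 passed the filter on low counts. The lowest count in any library was 6. In such bulk samples a change in the share of cells with an open site and a change within each cell cannot be told apart, nor can fewer cells of a type and less signal per cell. LPS and GCM are both compared with the same untreated libraries, so the comparisons share their control.

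The sites began below the typical pre-open region and ended above it. In untreated replicate 1 they ran from 0.809 CPM through a median of 6.38 to 28.1 CPM. In untreated replicate 2 the lowest, median and highest values were 0.841, 6.17 and 28.2 CPM. Over all pre-open regions the medians of these libraries were 9.08 and 9.11 CPM. With LPS the sites held a median of 11.2 CPM in replicate 1 (1.22 to 42.4) and of 10.9 CPM in replicate 2 (1.45 to 39.9), against 9.06 and 8.87 CPM over all pre-open regions. This crossing of the typical level follows from the choice. The median log2 change from untreated to LPS was 0.76 at the sites (from 0.51 to 1.43) and -0.03 over all pre-open regions, so the gains were moderate. The median ratio of lower LPS to higher untreated value was 1.52, only 32 of the 961 sites reached 2, and the highest was 2.47.

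In the GCM libraries the sites lay between both states and nearer to untreated. GCM replicate 1 held 0.968 to 31.1 CPM with a median of 7.62 CPM, and GCM replicate 2 held 1.41 to 31.1 CPM with a median of 7.80 CPM. Both medians lay above those of both untreated libraries and below those of both LPS libraries. The rule chose low untreated and high LPS values, so it favours such a place for GCM. Over all pre-open regions the GCM medians were 8.96 and 9.29 CPM, close to the untreated ones.

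**Figure D1:**
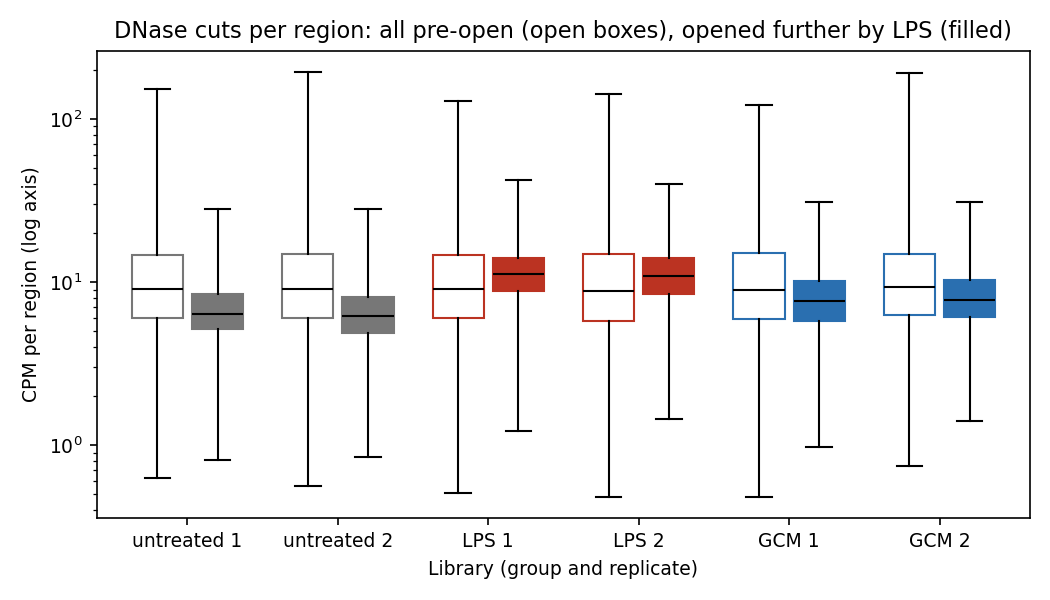
CPM per region in each library on a log axis, for all 69548 pre-open regions (open boxes) and the 961 regions opened further by LPS (filled boxes). Boxes span the quartiles with the median as a line, and whiskers reach the lowest and highest region. The medians of the filled GCM boxes, 7.62 and 7.80 CPM, lie between those of untreated (6.38 and 6.17) and LPS boxes (11.2 and 10.9). The choice of low untreated and high LPS values favours this order.

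The strongest openings were chosen by the ratio of lower LPS to higher untreated value, and the 10 highest lay on 5 chromosomes. At chromosome 14, 38416652 to 38416961, untreated libraries held 2.88 and 2.94 CPM, LPS libraries 7.74 and 7.26 CPM and GCM libraries 2.90 and 3.24 CPM. At chromosome 3, 72304908 to 72305185, the values were 3.15 and 3.22 CPM untreated, 8.66 and 7.91 CPM with LPS and 2.66 and 3.73 CPM with GCM. At both sites the GCM libraries overlapped the untreated ones and no LPS library came near them. These are short regions, 310 and 278 bp wide.

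The third in this order stood higher with GCM as well. At chromosome 8, 132049134 to 132049712, untreated libraries held 5.49 and 5.46 CPM, GCM libraries 8.23 and 10.5 CPM and LPS libraries 13.3 and 15.3 CPM. The groups did not overlap and the order was untreated, GCM, LPS. GCM was 1.74-fold above untreated (adjusted p = 0.0153, edgeR quasi-likelihood test) and 0.656-fold of LPS (adjusted p = 0.00388, edgeR). The site at chromosome 3, 161835395 to 161835922, showed the same order, with 4.86 and 4.20 CPM untreated, 6.66 and 8.30 CPM with GCM and 10.9 and 10.6 CPM with LPS. Its adjusted p was 0.0385 against untreated and 0.0282 against LPS (edgeR). These were the only 2 of the 961 sites (0.208%) at which GCM passed the test both against untreated and against LPS. The share over all regions was not counted. The choice favours both directions, and in DESeq2 0 of the 961 were called higher than untreated.

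Of the other 6, the site at chromosome 13, 39409267 to 39410121, was the widest (855 bp) and the most accessible. It held 11.0 and 7.29 CPM untreated, 23.9 and 23.6 CPM with LPS and 12.1 and 12.6 CPM with GCM. Its untreated libraries differed more from each other than its LPS libraries did. At chromosome 3, 163233724 to 163234349, the log2 change with LPS was 1.43 in the edgeR fit, the highest value among the 961 and shared with 1 other site, from 5.22 and 4.20 CPM to 13.5 and 12.3 CPM, and GCM left it at 4.72 and 5.81 CPM. At all 10 sites GCM was lower than LPS in edgeR (adjusted p from 8.40e-07 to 0.0282), a direction the choice by high LPS values favours.

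The 5 sites with the highest mean over all 6 libraries were 1308 to 1867 bp wide. Their log2 changes with LPS ran from 0.56 to 0.93, on both sides of the median of 0.76 over the 961. The top one, at chromosome 2, 242935200 to 242937066, was also the widest of all 961. It held 28.1 and 28.2 CPM untreated, 42.4 and 39.9 CPM with LPS and 31.1 CPM in each GCM library. The third, at chromosome 4, 30186738 to 30188460, rose from 17.1 and 15.7 CPM to 27.6 and 27.4 CPM with GCM (1.67-fold, adjusted p = 0.00411, edgeR) and held 35.5 and 27.2 CPM with LPS. Here the GCM values lay within the range of the LPS libraries. At chromosome 3, 78523082 to 78524847, the second widest site, LPS libraries held 24.0 and 22.3 CPM while untreated (13.7 and 13.5) and GCM libraries (12.6 and 14.9) overlapped.

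At the edge of the rule little separated sites inside from regions outside. Just inside, chromosome 10, 17359883 to 17360202, had 5.93 and 5.18 CPM untreated, 8.56 and 8.31 CPM with LPS and 4.24 and 4.31 CPM with GCM, a ratio of 1.4002. The next inside, on chromosomes 6 and 20, had ratios of 1.4008 and 1.4010. Just outside, chromosome 5, 150390424 to 150390941, had 8.00 and 6.73 CPM untreated, 11.2 and 11.9 CPM with LPS and 7.87 and 7.05 CPM with GCM, and 2 more lay on chromosomes 4 and 17.

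The comparison with GCM asks how these sites stood under a second stimulus. In edgeR 98 of the 961 sites (10.2%) were higher with GCM than untreated, beside 1.34% of the 126284 regions tested and 1.03% of the pre-open regions. None was lower, beside 0.231% of all regions and 0.0633% of pre-open regions (DESeq2 also called 0, with 2 at an unadjusted p under 0.05). Against LPS, 503 sites (52.3%) were lower with GCM, beside 4.84% of all regions and 2.25% of pre-open regions. None was higher, beside 3.75% and 3.49% (DESeq2 called 0, with 0 at an unadjusted p under 0.05). The median log2 change with GCM was 0.26 (quartiles 0.08 and 0.46), against -0.01 over all pre-open regions. The GCM libraries themselves differed by a median of 0.18 (log2, without sign) at these sites.

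Both shares are pulled by the choice, since sites with a low untreated or a high LPS reading were more likely to enter. At an unadjusted p under 0.05 in edgeR, 360 sites (37.5%) were higher and 10 (1.04%) lower than untreated, beside 7.79% and 4.20% of the pre-open regions. Against LPS, 702 (73.0%) were lower and 1 (0.104%) higher, beside 6.13% and 10.3%. The number of calls depended on single libraries and on the tool, at the sites and over all regions alike. Higher than untreated were 0 sites without untreated replicate 1 (234 at unadjusted p; 0.00948% of all regions), 6 without untreated replicate 2 (0.0677%) and 2 without GCM replicate 2 (0.0213%). With whole-library totals they were 8 (0.289% of all regions), and in DESeq2 0 (169 at unadjusted p; 0.00238%). The median log2 change of the sites was 0.25 to 0.30 in these fits. Lower than LPS were 269 sites (28%) without GCM replicate 2, 258 (26.8%) with whole-library totals and 117 (12.2%) in DESeq2, beside 2.18%, 3.54% and 0.542% of all regions. Their median log2 difference was -0.49, -0.57 and -0.50 in that order.

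To read GCM against an untreated library whose counts took no part in the choice, pre-open regions were chosen again with 1 untreated library and both LPS libraries and read over the other. The library kept out still entered through its hotspot list, since pre-open means a hotspot in all 6 lists. With untreated replicate 1 in the choice this gave 1798 regions. In GCM over untreated replicate 2 their median stood 0.21 (log2) above that of all pre-open regions, with 74.2% of them above it. With untreated replicate 2 in the choice, 2349 regions stood 0.16 above it, with 71.4% above. Each GCM library alone gave 0.14 to 0.26. The shift kept its direction with either untreated library left out of the choice, and both values lay below the 0.26 at the 961 sites. Those sites are a stricter set, read in edgeR over both untreated libraries. The gap can therefore not be put down to the library left out alone.

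The same reading was made with an LPS library kept out as well, so that no library whose counts made the choice was read again. Regions chosen with 1 untreated and 1 LPS library stood 0.34 to 0.43 (log2) above the pre-open median in the LPS library left out, over the other untreated library. In the GCM libraries they stood 0.12 to 0.24 above it, 32.6% to 56.2% of the LPS shift. These sets held 3320 to 4440 regions and are wider than the 961 sites. They were added after seeing the data.

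Individual sites spread widely between the untreated and the LPS level. Setting the untreated mean of a site at 0% and its LPS mean at 100% on the log scale, GCM stood at a median of 33.8% (quartiles 9.52% and 61.0%), and at 31.8% and 36.3% by the single GCM libraries. It lay below the untreated mean at 164 sites (17.1%), between 0% and 50% at 453 (47.1%), from there to the LPS level at 301 (31.3%) and beyond LPS at 43 (4.47%). In 452 sites (47.0%) both GCM libraries lay above both untreated and below both LPS libraries. This order holds in 2.22% of pre-open regions, but it needs LPS above untreated, which the rule set for all sites and not for the other regions. Both GCM libraries lay above both untreated ones at 591 sites (61.5%, against 21.0% of pre-open regions) and below both at 65 (6.76%, against 22.5%). Both lay below both LPS libraries at 817 sites (85.0%, against 17.4%) and above both at 9 (0.937%, against 24.9%). By size, the lower GCM value was at least 1.4 times the higher untreated one at 92 sites (9.57%, against 0.715%). The lower LPS value was at least 1.4 times the higher GCM one at 307 sites (31.9%, against 0.810%). The rule used the untreated and LPS values in these counts and favours GCM above untreated and below LPS, so the pre-open shares are given beside them and nothing is read from the difference.

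**Figure D2:**
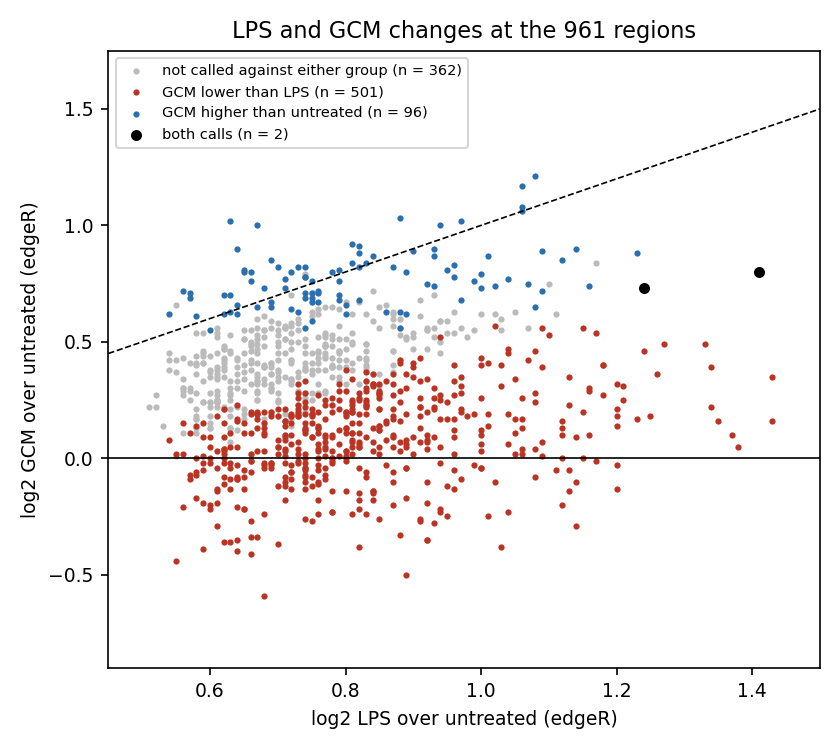
Log2 change with GCM (vertical axis) against log2 change with LPS (horizontal axis), both over the same untreated libraries, for the 961 regions. Colours give the edgeR calls, the dashed line marks equal changes and the horizontal line no change with GCM; 501 regions were called only as lower than LPS, 96 only as higher than untreated, 2 as both and 362 as neither.

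By these calls the sites fall into groups with different GCM levels. The 96 called higher than untreated and not different from LPS had medians of 5.92 CPM untreated, 10.6 CPM with LPS and 10.2 CPM with GCM. The 501 called lower than LPS and not different from untreated had medians of 6.72, 12.3 and 7.33 CPM in the same order. The 362 without either call had medians of 5.70, 9.50 and 7.65 CPM and were narrower, at a median of 460 bp against 554 and 557 bp. The groups were defined by the GCM values, so their GCM levels are a description, and a missing call does not show equal levels.

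At the sites highest with GCM, GCM and LPS levels were close. The 5 highest by the ratio of lower GCM to higher untreated value were picked for this ratio from sites already chosen for low untreated values, so their folds and p-values are a description. They had log2 changes of 1.03 to 1.21 with GCM and 0.88 to 1.08 with LPS. At chromosome 1, 161737780 to 161738226, untreated libraries held 4.05 and 4.20 CPM, GCM libraries 10.0 and 8.63 CPM and LPS libraries 9.57 and 7.66 CPM (GCM over untreated 2.25-fold, adjusted p = 0.00103, edgeR). At chromosome 2, 159135112 to 159135732, the values were 6.92 and 6.02 CPM untreated, 13.3 and 13.4 CPM with GCM and 13.2 and 11.0 CPM with LPS (2.04-fold, adjusted p = 0.000492, edgeR). At chromosome 6, 3807209 to 3807655, they were 4.41 and 4.90 CPM untreated, 8.96 and 11.9 CPM with GCM and 11.0 and 8.63 CPM with LPS (2.31-fold, adjusted p = 0.000450, edgeR).

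At all 5 the GCM libraries stood clear of the untreated ones, which follows from the ratio they were picked for. The other 2 lay at chromosome 1, 259193691 to 259194399, and at chromosome 18, 39249732 to 39250089. GCM and LPS did not differ by the test at any of the 5 (adjusted p from 0.585 to 0.996, edgeR), and their log2 differences ran from -0.01 to 0.15 with SEs from 0.136 to 0.167. All 5 lost the call against untreated in DESeq2 and without untreated replicate 1, 3 lost it without GCM replicate 2, and 1 without untreated replicate 2. Their log2 changes stayed at 1.04 to 1.18, 0.94 to 1.15, 0.96 to 1.31 and 0.96 to 1.27 in that order.

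At the opposite end were sites that opened with LPS and stood below untreated with GCM. At chromosome 3, 170937616 to 170938288, untreated libraries held 8.90 and 8.83 CPM, LPS libraries 16.1 and 16.5 CPM and GCM libraries 6.05 and 6.39 CPM. At chromosome 10, 37435375 to 37436245, the values were 13.0 and 14.6 CPM untreated, 26.8 and 29.0 CPM with LPS and 11.6 and 11.7 CPM with GCM. At chromosome 2, 114615793 to 114616196, they were 5.93 and 5.88 CPM untreated, 12 and 13.8 CPM with LPS and 4.60 and 4.98 CPM with GCM. In each the groups were apart, with both GCM libraries lowest.

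The 5 sites with the lowest ratio of higher GCM to lower LPS value, which include these 3, were 0.370-fold to 0.424-fold of LPS with GCM (adjusted p from 1.75e-08 to 1.19e-05, edgeR). They were picked for this ratio from sites chosen for high LPS values, so the p-values and the calls, which held in the alternatives tried, are a description. Their lower level with GCM than in untreated cultures did not pass the test (log2 from -0.50 to -0.10, adjusted p from 0.120 to 0.899, edgeR). The remaining 2 lay at chromosome 7, 29356289 to 29356760, and chromosome 6, 53278395 to 53278793.

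**Figure D3:**
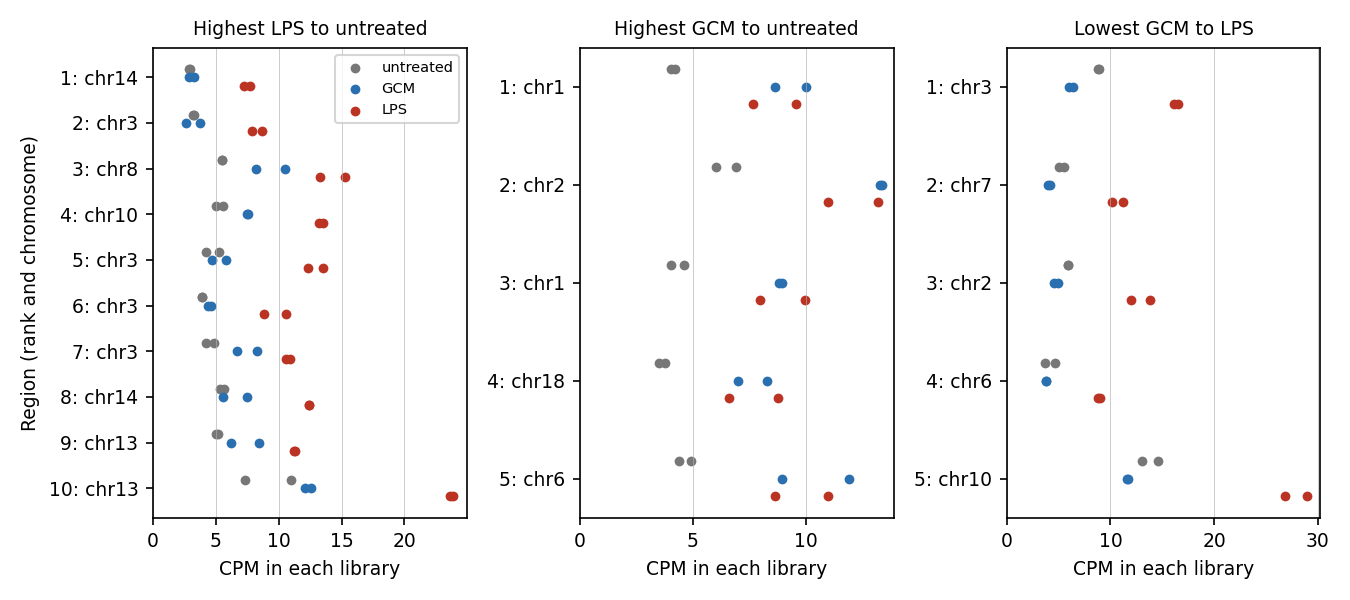
CPM in each library (2 points per group) for the 10 regions with the highest LPS to untreated ratio, the 5 with the highest GCM to untreated ratio and the 5 with the lowest GCM to LPS ratio, labelled by rank and chromosome. In the middle panel GCM and LPS points overlap or adjoin and stand apart from untreated; in the right panel GCM points lie at or below untreated.

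The GCM change showed no steady order over groups of sites by their LPS to untreated ratio. The 428 sites with a ratio from 1.4 to 1.5 had a median log2 change of 0.25 with GCM, the 245 from 1.5 to 1.6 had 0.23, the 201 from 1.6 to 1.8 had 0.29, the 55 from 1.8 to 2 had 0.19, and the 32 above had 0.26. The share called higher with GCM was 7.94%, 9.39%, 14.9%, 14.5% and 9.38% in the same order. Over these groups the median LPS level went from 10.8 to 12.3 CPM and the untreated one from 6.68 to 5.27 CPM. As a share of the way to LPS, the GCM median was 39.6% in the weakest group and 22.3% in the strongest. The groups are formed by the lower LPS over the higher untreated value, and the divisor of that share by the means of the same libraries. They are thus not independent, and both share the untreated values with the GCM change.

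The sites were of middling width. Their median was 523 bp (103 to 1867 bp), against 549 bp over all pre-open regions, and 42 (4.37%) were wider than 1 kb, against 15.1%. Of the pre-open regions in the quartile from 392 to 549 bp, 20.8 per 1000 were among the sites, and in the widest quartile 6.57 per 1000. By the GCM level the pattern was similar, with 15.0, 21.8, 15.8 and 2.70 sites per 1000 from the lowest to the highest quartile. Regions that LPS partly closed, described next, were also rare at the upper end, with 3.05 per 1000 above 14.9 CPM with GCM, 3.46 per 1000 in the widest quartile and 3.19% wider than 1 kb.

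Hotspot scores are the authors' own values and were ranked within the list of each library. The hotspots at the sites ranked below those of all pre-open regions in both untreated lists, at median percentiles of 66.5 against 78.8 and 44.0 against 67.2. They ranked above them in both LPS lists, at 87.4 against 74.2 and 88.3 against 77.0. In the GCM lists they ranked below them again, at 66.6 against 72.5 and 66.4 against 74.2. Hotspots covered a median of 77.5% and 60.0% of the width of a site when untreated, 100% in both LPS lists, and 86.3% and 88.0% after GCM. The lists differ in length, so ranks were compared only within a list. The scores come from the same libraries as the counts. Low untreated and high LPS ranks, and the matching coverage, are therefore favoured by the choice.

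The mirror image of these sites was a set of 721 pre-open regions that LPS partly closed, with the lower untreated value at least 1.4 times the higher LPS value. They began higher than the sites opened further, at an untreated median of 8.41 CPM against 6.28 CPM. This gap is favoured by the choice, since the closing rule favours high untreated values and the opening rule low ones. Over all pre-open regions the untreated median was 9.04 CPM, above both. The closing regions were narrower than the sites opened further, at a median of 466 bp. With GCM the median log2 change was -0.19, over untreated values that the rule favours when high. In edgeR 3 of the 721 (0.416%) were lower, beside 0.231% of all regions tested and 0.0633% of pre-open regions. Called higher were 0, beside 1.34% and 1.03%. Regions chosen as closing with 1 untreated library and both LPS libraries stood at -0.09 and -0.07 (log2) from the pre-open median in GCM over the other untreated library. The matching values at regions chosen as opening were 0.21 and 0.16. The difference between the directions was not tested.

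Around the sites other regions were also more accessible with LPS. Within 1 kb of a site lay 362 other counted regions, whose median log2 change with LPS was 0.19, and 13.3% of them were called higher in edgeR, beside 6.71% of all regions tested and 3.68% of pre-open regions. Called lower were 0.552% of them, beside 3.14% and 2.71%. At 1 to 5 kb the median was 0.12, at 5 to 20 kb 0.07, at 20 to 50 kb 0.05, at 50 to 200 kb 0.02 and beyond 200 kb -0.02. With GCM the medians over the same distances were 0.11, 0.10, 0.07, 0.05, 0.02 and -0.02. Both comparisons share the untreated libraries, and neighbours within 1 kb can belong to the same stretch of open chromatin. Around the 721 closing regions the LPS medians were -0.07 within 1 kb and -0.08 at 1 to 5 kb.

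**Figure D4:**
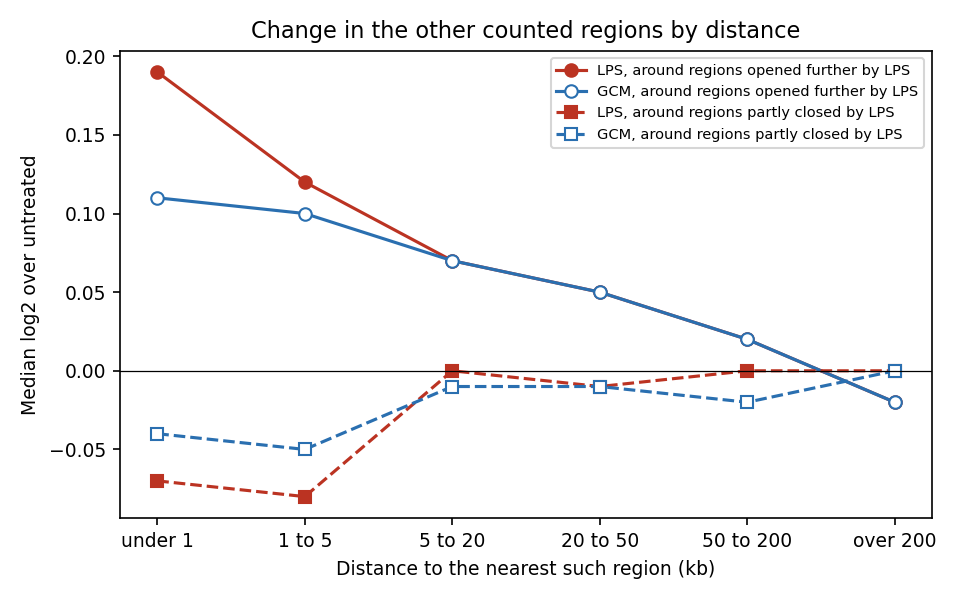
Median log2 change over untreated in counted regions, by distance to the nearest region opened further by LPS (solid lines) or partly closed by LPS (dashed lines), those regions themselves left out. Red is LPS and blue GCM; around opened regions the LPS median goes from 0.19 under 1 kb to -0.02 beyond 200 kb.

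When the neighbours were themselves pre-open the LPS shift was smaller. Their median was 0.08 within 1 kb and 0.03 at 1 to 5 kb, against -0.04 beyond 200 kb, and the rule had removed from them the regions with the largest gains. Counted regions that met a hotspot of each LPS list but of no untreated list numbered 13378. Such a region lay within 10 kb of 33.0% of the sites, of 24.1% of all pre-open regions and of 16.2% of the closing ones. The counted regions were about as dense around the sites, with a median of 12 within 50 kb, as around all pre-open regions (11), and less dense around the closing ones (9).

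Most sites stood alone. The median distance to the nearest other site was 437 kb, and 113 of the 961 (11.8%) had another within 50 kb, in 56 groups, of which only 1 held 3 sites. That group spanned 31.6 kb of chromosome 3, from 161804279 to 161835922, and ended with the site named above that differed from both groups by the test. Its first site held 9.44 and 8.69 CPM untreated, 18.2 and 14.4 CPM with LPS and 10.4 and 11.0 CPM with GCM. Its second held 13.7 and 9.53 CPM untreated, 20.4 ± 0.544 CPM with LPS (mean and SD, n = 2) and 14.3 and 13.2 CPM with GCM. All 3 were lower with GCM than with LPS by the test, while of the 10 other regions there and within 50 kb, 1 was not tested, 5 had a log2 change above 0 with LPS and 1 was called higher. Sites of a group share their neighbourhood and are not replicates.

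Neighbouring sites could differ in their GCM level. On chromosome 1 a pair lay within 8.79 kb. At 26054012 to 26054655 the GCM libraries (14.8 and 13.2 CPM) came near LPS (15.6 and 15.0) and stood above untreated (8.81 and 5.88; 1.82-fold, adjusted p = 0.00349, edgeR). At 26062068 to 26062798 they (9.20 and 9.71 CPM) came near untreated (7.82 and 8.13) and stood below LPS (14.1 and 15.6; 0.635-fold, adjusted p = 0.00141, edgeR). Whether the GCM change differs between the neighbours was not tested. In another pair, at 126002477 to 126044968 on the same chromosome, GCM was lower than LPS at both sites (adjusted p = 0.000470 and 0.0154, edgeR).

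**Figure D5:**
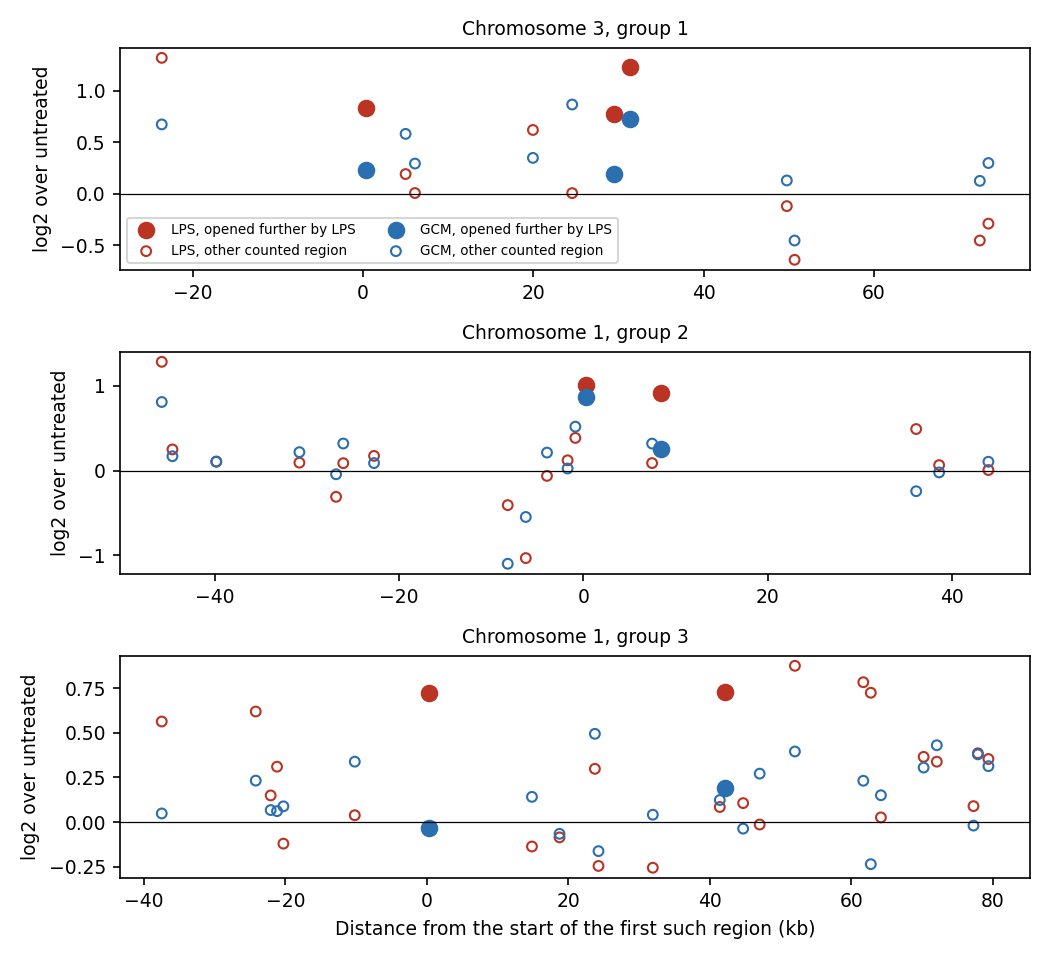
Log2 change over untreated with LPS (red) and GCM (blue) in every counted region of 3 groups of neighbouring sites and 50 kb to each side, by distance from the start of the first site. Large filled points are regions opened further by LPS and small open points other counted regions; in group 2 the GCM values of the sites are 0.87 and 0.26.

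The sites occurred on all 21 chromosomes counted. Chromosome 1 held the most, 96, and chromosomes 12 and X the fewest, 12 each. Relative to the pre-open regions they were most frequent on chromosomes 6 and 17, at 18.5 and 18.2 per 1000. They were least frequent on chromosome 12, at 5.95 per 1000. The closing regions numbered 12.9 per 1000 there and up to 13.5 per 1000, on chromosome 9. On chromosome 12 the other pre-open regions had a median log2 change of -0.06 with LPS, the lowest of the 21, and -0.07 with GCM. Across the 21 chromosomes, which share the same libraries, sites per 1000 and that LPS median had a Pearson r of 0.64 (Spearman rho 0.58), as a description. Sites and closing regions per 1000 had a Pearson r of -0.08 (Spearman rho -0.05).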

How the data were processed

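DNase I sequencing data of 6 libraries were used. The submitters' processing notes list DiffBind, edgeR, Picard 1.95, SAMtools, Bowtie 1.1.2 and cutadapt 1.8.3, and build rn5; order and settings are not given in the sources used here. The authors deposited raw counts of tags per region, and for each library a hotspot list with a score of undefined scale (false discovery rate 0.01 per the file names). Per the file headers, the deposited comparisons give log2 fold changes, p-values and CPM; counts divided by these CPM gave whole-library totals.

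Counts were scaled to each library's total in regions to choose sites. Group means of the 6 libraries were fitted together and tested by quasi-likelihood in edgeR 4.0.16 (R 4.3.3, with DESeq2 1.42.0 as an alternative; minimum count 10, 126284 regions, TMM factors 0.986 to 1.01, two-sided, Benjamini-Hochberg over all regions, threshold 0.05). The SE of a log2 change was its size over the square root of F. Overlaps of at least 1 bp came from bedtools 2.31.1, and summaries from Python 3.11.15. The fit was also run on simulated counts with known changes. These had the same spread in every region and changes larger than the median GCM change of the sites. The run therefore does not show how often changes of that size are called. Positions count from 1, both ends included.

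Sites named in the text are the 10 with the highest LPS to untreated ratio, the 5 with the highest mean, the 5 at each end of the GCM ratios, 3 on each side of the threshold, the 3 groups with most sites at gaps within 50 kb (ties, here all groups of 2, by chromosome order) and the 3 widest. The sites, lists and tests were chosen with earlier results of these data known. The 8 columns of CPM per base in each comparison table were not used, nor were gene or sequence tables of another genome build.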

Additional observations from a re-analysis of the deposited data

How the results depend on the processing

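Choosing the sites depended on scaling and on single libraries: 1632 met the rule with whole-library totals, 3334 at a threshold of 1.2, 32 at 2, 626 when hotspots had to cover 50% of the region, and 1798 to 2349 when 1 untreated or LPS library was left out. All 961 were among the 1632. That scaling moved a median LPS change of -0.01 to 0.09 and a median GCM change of -0.01 to 0.05 (log2). These medians are not those of the 961 sites. At the 961 the median GCM change was 0.26 in the main fit and 0.28 with whole-library totals.

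For the 961 sites, the number higher with GCM than untreated was 8 with whole-library totals and 0 in DESeq2, and ran from 0 to 122 when 1 library was left out; the authors' deposited table gave 112. The number lower than untreated was 0, or 1 with only the 4 libraries compared and with a replicate block, and 0 to 1 with a library left out. The number lower than LPS was 258 with whole-library totals and 117 in DESeq2, and 269 to 475 with a library left out; the number higher than LPS was 0 to 1. A block for replicate number gave 131 higher than untreated and 546 lower than LPS. The labels do not say that a number marks a shared preparation, so the numbers were not taken as pairs. The replicate 1 to replicate 2 differences correlated at 0.008 between untreated and LPS and 0.163 between untreated and GCM. Between LPS and GCM they correlated at -0.029. Noise in the counts lowers such correlations, so they cannot exclude a shared preparation.

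The median GCM position was 22.3% for sites at a ratio of 2 or more, 37.1% with whole-library totals and 31.8% to 37.2% with a library left out. The reading over a held-out untreated library was 0.21 and 0.16 (log2) with both LPS libraries in the choice. With 1 LPS library in the choice it was 0.12 to 0.24, lowest with untreated and LPS replicate 2. The readings with 1 LPS library were all added after seeing the data. Sites in groups numbered 48 with gaps within 20 kb and 209 within 100 kb. No cause of a change was tested. Median counts of 44 to 135 per site limit the precision at single sites.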
